A study of Gasterosteus aculeatus with 29 samples.

Results

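The comparison concerns what a father's experience of predation risk leaves in the brains of offspring that met no such risk themselves. In the three-spined stickleback (Gasterosteus aculeatus) the male alone tends the eggs and the newly hatched young, and his behaviour towards the brood changes when a predator is near. Cues from the father can therefore reach the offspring before it meets a predator, and such parental effects are known in this species from behaviour, growth and brain gene expression. The fish were selected by their labels. Paternal exposure only comprised 8 fish whose fathers were exposed to predation risk while caring for them and which were not exposed themselves. Neither exposure comprised 5 fish for which father and offspring were both unexposed. Together these were 13 of the 29 fish of the series. The other 16 libraries, 7 from fish with both exposures and 9 from fish with personal exposure only, entered the fits. There they helped to estimate the spread, the sex term and the correlation between siblings. They also counted in the filter of genes and in measures taken over all 29 libraries. Below they are used in contrasts of the paternal effect and beside the named genes. By their labels, the fish of these 16 libraries met predation risk as juveniles, which is called personal exposure.

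RNA of whole brains was enriched for poly-A transcripts and sequenced single-end, with 1 library per fish. The paternal only fish came from 5 fathers (M9, M11 and M42 with 2 fish each, M15 and M43 with 1) and comprised 5 females and 3 males. The neither fish came from 3 fathers (M8 and M33 with 2 fish each, M20 with 1) and comprised 2 females and 3 males. No father has offspring in both groups, so a lasting difference between these families and the father's exposure cannot be told apart beyond the spread among fathers. The extraction protocol of the submitters states 9 paternal only fish, while the series holds 8, all of which were used. Each of the 5 sequencing lanes held 1 neither library and 1 or 2 paternal only libraries. A whole brain mixes many cell types, and in such tissue fewer cells of a type and less RNA per cell cannot be told apart. The identifiers of the table are not paired with symbols in any source used here, so that genes are given by identifier, cell type markers could not be checked and no role is given to any gene.

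The libraries of the groups were alike in most measures, apart from 1 library. Paternal only libraries held 4316374 to 26896865 reads in the table, and neither libraries 3313717 to 20965092. The mean of log2 reads was 22.8 ± 0.95 in paternal only (SD, n = 8) and 22.7 ± 1.09 in neither (SD, n = 5), a difference of 0.092 (exact two-sided permutation test, p = 0.889). Genes with at least 1 read numbered 17614 ± 57.3 in paternal only and 17599 ± 103 in neither, of 17730 in the table (exact permutation test, p = 0.726). Both tests treated the fish as independent, siblings included. With the mean of each father's fish as the unit, the exact permutation p was 0.786 for log2 reads and 0.607 for genes with reads. The relative log spread, which is the interquartile range over genes of a library's difference from the median library, was 0.249 to 0.401 log2 units in the 8 paternal only libraries. In neither it was 0.267 to 0.338 in 4 libraries and 1.52 in neither replicate 3, a male of father M8. That library was the lowest or the highest of all 29 at 59.1% of the 16660 genes tested, where the other 12 libraries of the comparison held such a place at 0.756% to 8.67% of genes. Its 100 genes with most reads took 22.0% of its reads, against 13.4% to 14.3% in the other neither libraries. The counts of genes and the fitted differences below are therefore given with and without neither replicate 3, and where a value rests on 1 of these sets of libraries the set is named.

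**Figure D1:**
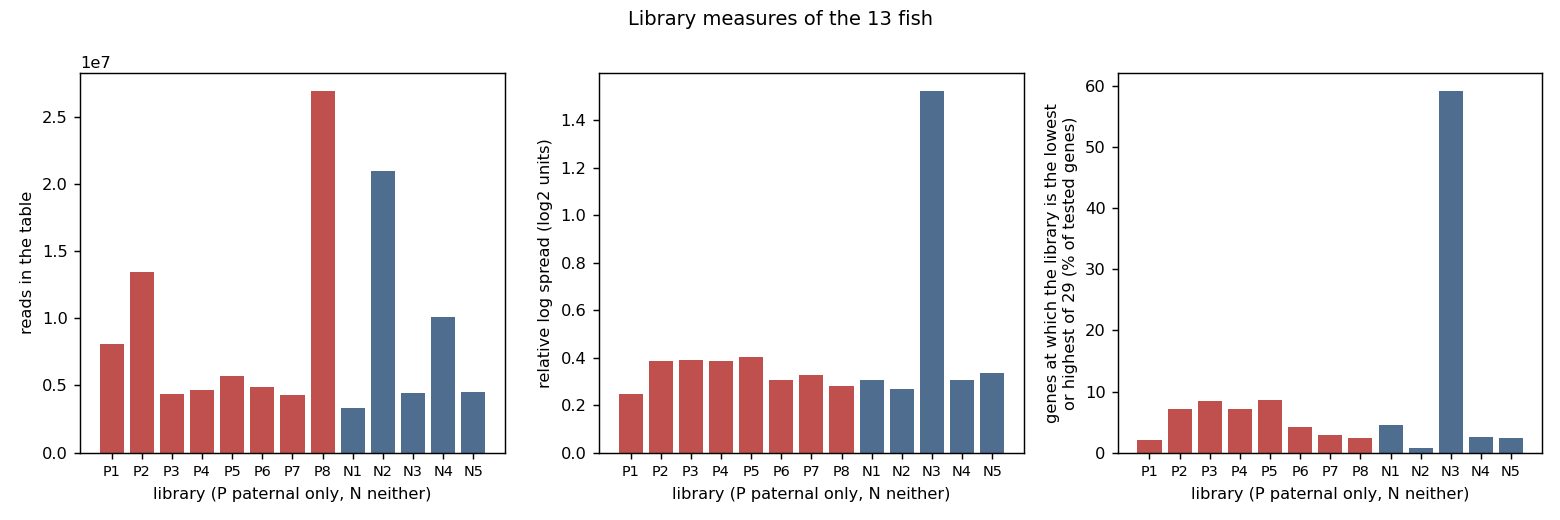
Reads in the gene table (left), relative log spread in log2 units (middle) and share of tested genes at which the library was the lowest or highest of all 29 (right), 1 bar per library, with paternal only (P1 to P8) in red and neither (N1 to N5) in blue. Neither replicate 3 (N3) stands at a spread of 1.52 and a share of 59.1%, while its read total lies among those of the others.

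With all libraries, no gene passed an adjusted p of 0.05 for paternal only against neither in limma, with sex as a term and father as a random block (0 of 16660 genes, 0%, smallest adjusted p = 0.126). Before adjustment, p lay below 0.05 at 1789 genes with higher values in paternal only (10.7% of the genes tested) and at 1722 with lower values (10.3%), together 3511 or 21.1%, where an even spread of p-values puts 5%. Without neither replicate 3 again 0 genes passed (smallest adjusted p = 0.287), and such p-values, called nominal below, were found at 676 genes with higher values (4.06%) and 585 with lower values (3.51%), together 1261 or 7.57%. The size of this drop depended on the fit. With library weights, which let a library that stands apart count for less, 2128 genes (12.8%) had a nominal p below 0.05 with all libraries and 2174 (13.0%) without neither replicate 3. Limma-voom on recovered reads gave 3154 and 1746 genes, where sums of these reads also replaced the scaled library sizes behind the deposited values. Limma with only the 13 libraries of the comparison gave 1986 and 1495. Limma-voom on recovered reads called 0 genes, and with neither replicate 3 left out it called 1, ENSGACG00000000717, with a difference of -1.39 ± 0.23 (SE) on the log2 scale (adjusted p = 0.0307), singled out here because it was called.

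Neither replicate 3 lay at the edge of its own group at most genes, and more often among those of the larger count. At 3239 of the 3511 genes (92.3%) it was the neither library farthest from the others on the side of the difference, where each of the other 4 neither libraries held that place at 22 to 121 genes. Over all 16660 genes tested neither replicate 3 held it at 69.1%. The 3511 genes were selected in a fit that includes this library, so that their share is a description. All 3511 genes kept their direction when it was left out, but 1134 of them (32.3%) stayed at a nominal p below 0.05. These were 89.9% of the 1261 genes found without it. The difference per gene shrank as well. Its median size over all genes tested was 0.229 log2 units with all libraries and 0.129 without neither replicate 3.

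**Figure D2:**
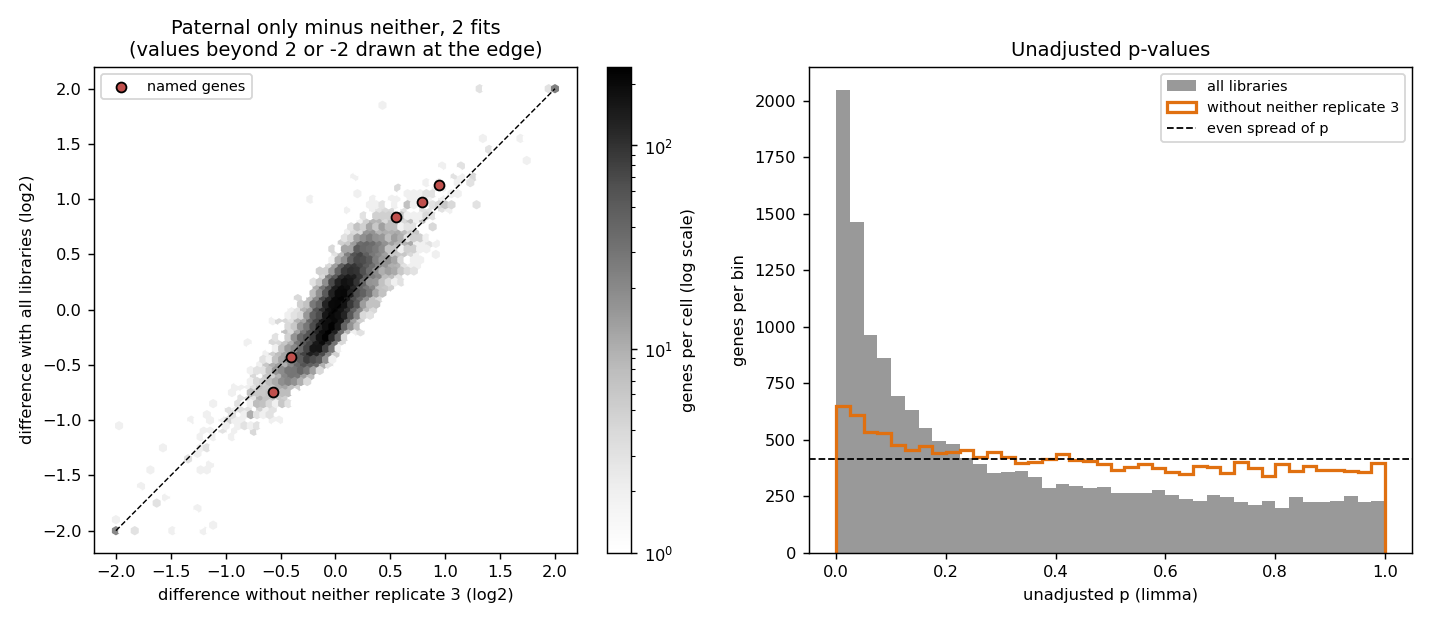
Left, log2 difference of paternal only minus neither for 16660 genes with all libraries (vertical axis) against that without neither replicate 3 (horizontal axis), shaded by the number of genes, with the named genes in red and equality as a dashed line. Right, unadjusted limma p-values in equal bins with all libraries (grey) and without neither replicate 3 (orange), where the excess at low p is tall in grey (3511 genes under 0.05) and slight in orange (1261 genes).

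Which fish set the number of genes was followed by leaving out each library in turn. With neither replicate 3 kept, the number at a nominal p below 0.05 ranged from 2395 without paternal only replicate 5 to 4756 without neither replicate 2, the brother of neither replicate 3. With neither replicate 3 also left out it ranged from 974 without neither replicate 5 to 1594 without paternal only replicate 7. Each of these lay above 5% of the genes tested, which is the dashed line in the plot of genes by library left out. By family, and without neither replicate 3, the number was 708 without father M33, which is below that line, and 1656 without father M11. The fit without M33 then kept only neither replicates 1 and 2 in the neither group. Leaving out a father took out all of his fish, also those with personal exposure. These were personal only replicate 5 for M33, and both replicate 6 and both replicate 7 for M11. With neither replicate 3 kept, the number was 5036 without father M33 and 2658 without father M11.

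**Figure D3:**
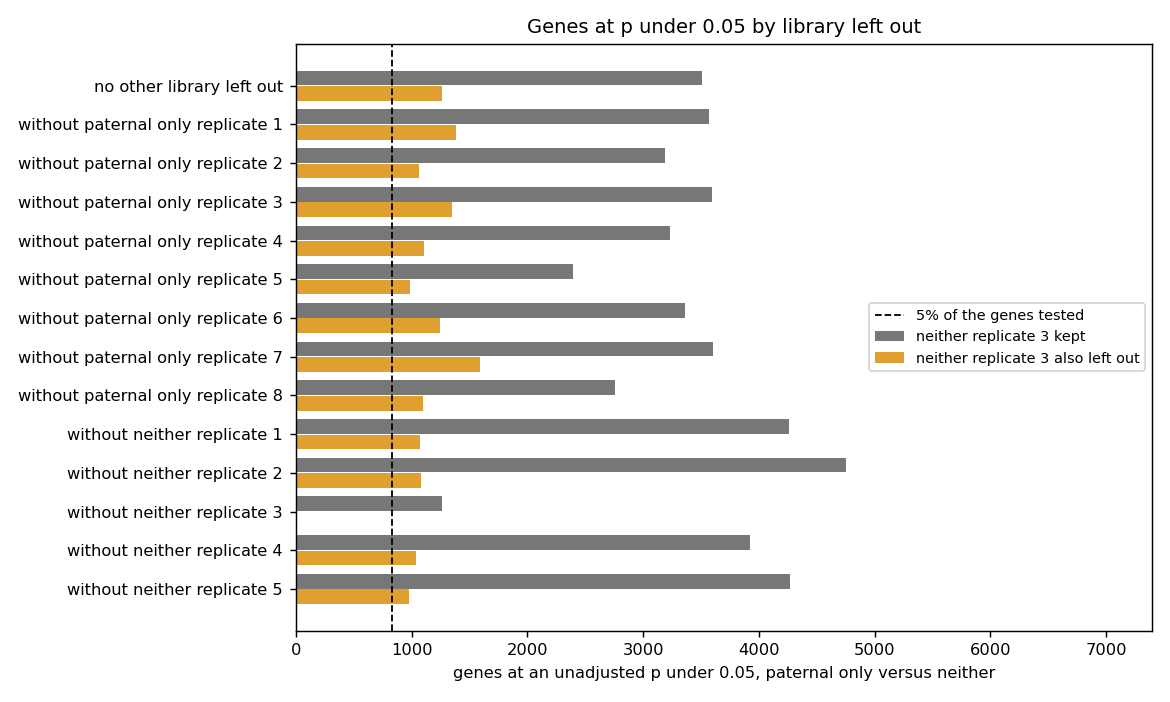
Genes with a nominal p below 0.05 for paternal only against neither (horizontal axis) after leaving out the library named on the vertical axis, with neither replicate 3 kept (grey) or also left out (orange). The grey bars run from 1261, where neither replicate 3 is the library left out, to 4756, and the orange ones from 974 to 1594; the dashed line is 5% of 16660 genes.

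The genes named next are those with the smallest p in each direction and a mean of at least 1 log2 CPM, 2 higher and 2 lower in each fit. Because 3 genes led both fits, they come to 5. None passed the adjusted threshold in either fit. ENSGACG00000013161 had 3.26 log2 CPM in the lowest paternal only fish, a median of 3.58 and 4.09 in the highest. The neither fish had 2.81, 2.72, 1.68, 2.92 and 2.85 log2 CPM in replicates 1 to 5. All 8 paternal only fish lay above all 5 neither fish, and neither replicate 3 lay 1.05 below its brother. The means were 3.63 ± 0.31 log2 CPM in paternal only (SD, n = 8) and 2.59 ± 0.52 in neither (SD, n = 5). The fitted difference was 0.98 ± 0.18 (SE), or 1.97-fold, with an adjusted p of 0.126 in limma. Without neither replicate 3 it was 0.79 ± 0.15, or 1.73-fold (limma, adjusted p = 0.287). The gene had 89 to 612 reads in paternal only libraries and 23 to 304 in neither libraries.

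ENSGACG00000020611 had 1.54 log2 CPM in the lowest paternal only fish, a median of 2.46 and 2.64 in the highest. In neither replicates 1 to 5 it had 1.34, 1.16, 0.16, 1.25 and 1.68 log2 CPM. The groups overlapped by 1 fish, since 7 of the 8 paternal only fish lay above the highest neither fish. The lowest values among paternal only fish belonged to the 2 sons of father M11, whose mean was 1.63 log2 CPM where the means of the other exposed fathers were 2.32 to 2.64. The fitted difference was 1.13 ± 0.22 (SE), or 2.18-fold (limma, adjusted p = 0.129), and 0.94 ± 0.20, or 1.92-fold, without neither replicate 3 (adjusted p = 0.287). Without father M11 the gene passed, at 1.31 ± 0.22 with all other libraries (limma, adjusted p = 0.0334) and at 1.13 ± 0.18 without neither replicate 3 as well (adjusted p = 0.0297). Leaving out this family takes away the lowest paternal only values, so that a larger difference follows from the omission and adds no support. Without 1 of the other fathers, and with neither replicate 3 otherwise kept, the adjusted p was 0.0622 (M33) to 0.681 (M8) in limma. The gene had few reads, from 27 to 195 in paternal only libraries and from 8 to 103 in neither libraries.

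ENSGACG00000001969 was chosen in the fit without neither replicate 3. It had 2.46 log2 CPM in the lowest paternal only fish, a median of 2.61 and 2.86 in the highest, and 2.07, 2.10, 0.48, 2.26 and 2.07 log2 CPM in neither replicates 1 to 5. All paternal only fish lay above all neither fish, and 4 of the 5 neither fish lay within 0.19 log2 units of each other. The difference was 0.55 ± 0.11 (SE), or 1.46-fold, without neither replicate 3 (limma, adjusted p = 0.287) and 0.84 ± 0.20 with it (adjusted p = 0.178).

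Among genes with lower values in paternal only, ENSGACG00000013097 had an SD of 0.093 log2 CPM in paternal only and 0.122 in neither (0.107 without neither replicate 3). It had 2.59 log2 CPM in the lowest paternal only fish, a median of 2.73 and 2.87 in the highest, and 3.17, 3.00, 3.30, 3.07 and 3.25 log2 CPM in neither replicates 1 to 5. The groups did not overlap, and neither replicate 3 was the highest of the neither fish by a small margin. The difference was -0.43 ± 0.09 (SE), or 0.742-fold (limma, adjusted p = 0.178), and -0.40 ± 0.09 without neither replicate 3 (adjusted p = 0.449). ENSGACG00000011581 had 1.43 log2 CPM in the lowest paternal only fish, a median of 1.76 and 1.94 in the highest. In neither replicates 1 to 5 it had 2.52, 2.09, 3.17, 2.31 and 2.14 log2 CPM. Again the groups did not overlap. The difference was -0.74 ± 0.16 (SE), or 0.598-fold (limma, adjusted p = 0.178), and -0.57 ± 0.13, or 0.673-fold, without neither replicate 3 (adjusted p = 0.449). A place beyond the neither range was not particular to paternal only. Of 9 personal only fish, with unexposed fathers, 6 lay above all 5 neither fish for ENSGACG00000013161, 8 for ENSGACG00000020611 and 7 for ENSGACG00000001969. Below all 5 lay 7 for ENSGACG00000013097 and 3 for ENSGACG00000011581. Of the 7 fish with both exposures, all lay above for the higher genes, and 5 and 4 below for the lower genes.

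**Figure D4:**
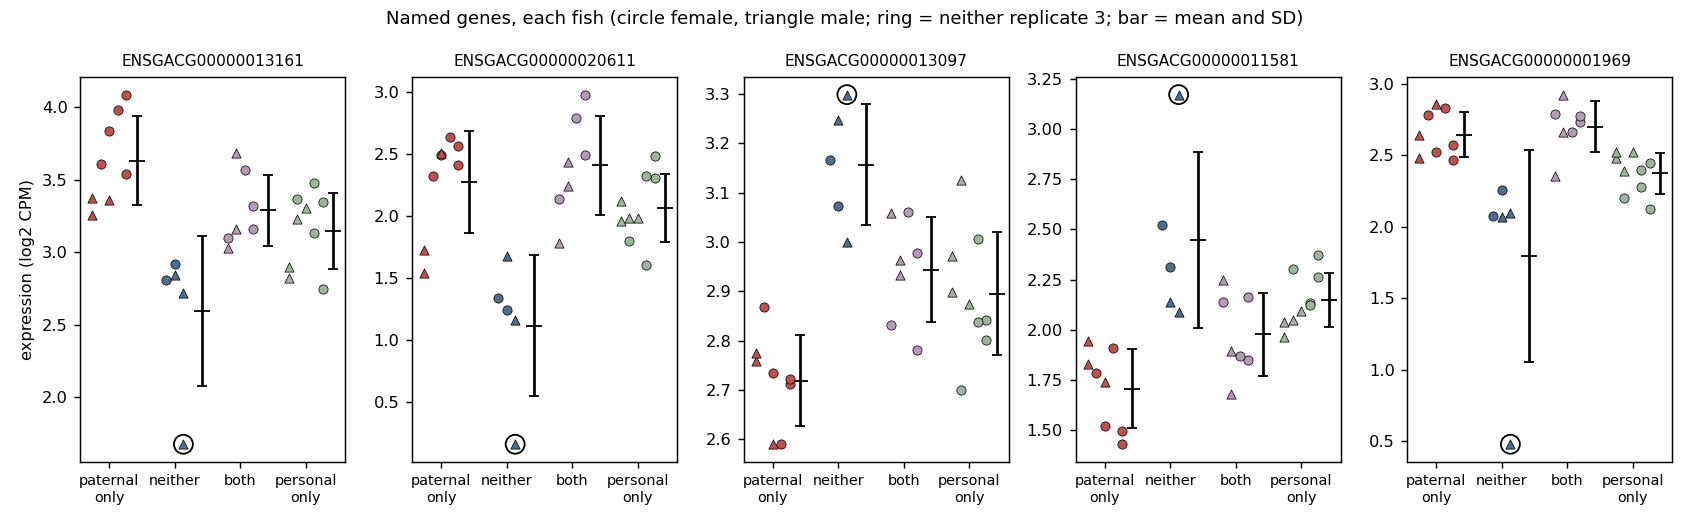
Expression in log2 CPM of the 5 named genes in each fish of the 4 groups, with circles for females, triangles for males, fish of a father in 1 column, the mean and SD as a bar and a ring round neither replicate 3. In ENSGACG00000013161, ENSGACG00000013097, ENSGACG00000011581 and ENSGACG00000001969 the paternal only fish do not overlap the neither fish.

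Groups without overlap were uncommon in the table as a whole. All 8 paternal only fish lay above all 5 neither fish at 82 genes (0.492% of the genes tested) and below them at 75 (0.45%). Without neither replicate 3 these were 93 (0.558%) and 101 (0.606%). With the mean of each father's fish as the unit, the 5 exposed fathers lay above the 3 unexposed fathers at 647 genes (3.88%) and below them at 728 (4.37%), and at 539 (3.24%) and 616 (3.7%) without neither replicate 3. Father means of each of the 5 named genes did not overlap, with or without neither replicate 3. For ENSGACG00000013161 they were 3.32 to 3.98 log2 CPM in exposed fathers and 2.20 to 2.88 in unexposed fathers (2.72 to 2.88 without neither replicate 3), and for ENSGACG00000013097 they were 2.59 to 2.87 against 3.15 to 3.17 (3.00 to 3.17 without neither replicate 3). The named genes were chosen from the same contrast, so that this describes them and adds no support.

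Because every lane held libraries of each group, the difference could be read within lanes. The direction was the same in all 5 lanes at 1551 genes with higher values in paternal only (9.31%) and at 1519 with lower values (9.12%), the 5 named genes among them. Without lane 4 it was the same in the remaining 4 lanes at 1881 (11.3%) and 1911 genes (11.5%). The lanes are not independent readings. The neither fish of lanes 4 and 8 share father M8, and those of lanes 5 and 6 share father M33. The named genes were chosen from this contrast, so that their place among these genes adds no support. For ENSGACG00000013161 the within-lane differences were 1.87 in lane 4, which holds neither replicate 3, and 0.50 to 1.17 in the other lanes. For ENSGACG00000013097 they were -0.59 in lane 4 and -0.52 to -0.25 in the others. With lane as a term, limma called 0 genes, whether or not neither replicate 3 was in the fit. By sex, the mean difference of ENSGACG00000013161 was 0.95 log2 units in daughters (5 paternal only and 2 neither fish) and 0.92 in sons (3 and 3 fish), or 0.55 in sons without neither replicate 3. That of ENSGACG00000001969 was 0.47 in daughters and 1.11 in sons, or 0.58 in sons without neither replicate 3. For ENSGACG00000020611 it was 1.20 in daughters and 0.93 in sons, or 0.51 in sons without that library. For ENSGACG00000011581 it was -0.79 in daughters and -0.63 in sons, or -0.28 in sons without that library. For ENSGACG00000013097 it was -0.39 in daughters and -0.47 in sons, or -0.41 in sons without that library. Whether daughters and sons differed was not tested here.

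**Figure D5:**
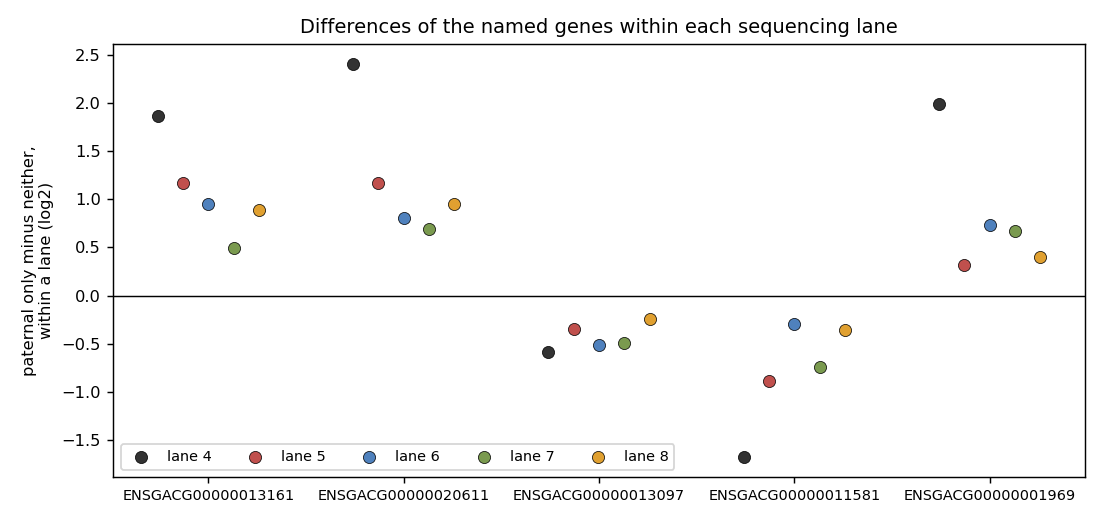
Log2 difference of paternal only minus neither within each sequencing lane for the 5 named genes, 1 point per lane, from 1 neither library and 1 or 2 paternal only libraries. All points of a gene lie on the same side of 0, and lane 4, with neither replicate 3, is the farthest from 0 in each gene.

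How large a difference the data leave room for was read from the 95% intervals of the fit. Without neither replicate 3, the interval lay within a 2-fold change in either direction at 13958 genes (83.8%) and within a 1.5-fold change at 10583 (63.5%). Among the 3546 abundant genes, with a mean of at least 5 log2 CPM, it lay within 1.5-fold at 3251 (91.7%), and the median size of the difference was 0.090 log2 units with a median SE of 0.106, where both were larger with all libraries (0.194 and 0.135). Among the 10747 genes of 1 to 5 log2 CPM it lay within 1.5-fold at 7274 (67.7%). Among the 2367 genes under 1 log2 CPM 58 (2.45%) were bounded in this way, so that the fit leaves room for a 1.5-fold difference at most of them. Of these 2367 genes, 106 (4.48%) had a nominal p below 0.05 without neither replicate 3 and 192 (8.11%) with all libraries. With neither replicate 3 included the intervals were wider, and 2374 of the abundant genes (66.9%) were within 1.5-fold. Estimated differences over 2-fold were found at 315 genes without neither replicate 3 (146 higher, 169 lower), of which 264 were under 1 log2 CPM and 0 were abundant. With all libraries they numbered 404 (211 higher, 193 lower), of which 325 were under 1 log2 CPM and 3 were abundant. With all libraries, no gene of the table had 0 reads in every neither library, and none had 0 reads in every paternal only library. A gene read in 1 group alone was therefore not possible. Without neither replicate 3, 1 gene had 0 reads in every neither library and reads in 5 or more, though not all, paternal only libraries.

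Differences among fish of a group were close in size to those between fish of the 2 groups. Over the abundant genes, the median absolute difference between a paternal only and a neither fish was 0.162 log2 units (median of 32 pairs without neither replicate 3, range 0.107 to 0.218). Between unrelated paternal only fish it was 0.159 (25 pairs, 0.122 to 0.218) and between unrelated neither fish 0.140 (5 pairs without neither replicate 3, 0.124 to 0.143). Siblings were not nearer to each other in paternal only, with 0.157, 0.163 and 0.173 in the 3 families with 2 fish, whereas the 2 fish of father M33 in neither differed by 0.101. The 4 pairs with neither replicate 3 differed by 0.724 to 0.775. The SD within paternal only exceeded that within neither at 70.6% of genes without neither replicate 3 (median SD 0.247 and 0.185 log2 units) and at 30.4% with it (0.247 and 0.427). Paternal only fish come from more fathers, and an SD over 4 fish tends to come out below that over 8. Whether either accounts for the wider spread was not tested. Over libraries, the relative log spread was 0.341 ± 0.058 in paternal only (SD, n = 8) and 0.304 ± 0.029 in the 4 other neither libraries (exact two-sided permutation test, p = 0.255). That test also treated siblings as independent.

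Whether the difference was particular to fish that were not exposed themselves was tested as the difference between the paternal effect in personally exposed fish (both minus personal only) and that in unexposed fish (paternal only minus neither). In limma 0 genes passed, and 1797 (10.8%) had a nominal p below 0.05. Leaving out neither replicate 3 again gave 0 genes past the threshold and brought the nominal count to 706 (4.24%). Limma-voom called 1 gene in each case, ENSGACG00000015268, with a mean of 0.81 log2 CPM, at -2.75 ± 0.46 (SE) with all libraries (adjusted p = 0.0392) and -2.75 ± 0.45 without neither replicate 3 (adjusted p = 0.0284), also singled out because it was called. In personally exposed fish the paternal difference of ENSGACG00000013161 was 0.15 ± 0.13 (95% interval -0.12 to 0.41), against 0.79 ± 0.15 in unexposed fish, without neither replicate 3. That of ENSGACG00000013097 was 0.05 ± 0.08 (interval -0.10 to 0.21) against -0.40 ± 0.09. ENSGACG00000001969 had 0.31 ± 0.10 (interval 0.12 to 0.51) against 0.55 ± 0.11, and ENSGACG00000020611 had 0.36 ± 0.16 (interval 0.02 to 0.70) against 0.94 ± 0.20. ENSGACG00000011581 had -0.20 ± 0.11 (interval -0.42 to 0.03) against -0.57 ± 0.13. In limma the difference between the paternal effects had an adjusted p of 0.99 for each of the 5 named genes without neither replicate 3, and of 0.459 with it. Its 95% interval without that library was -1.02 to -0.26 for ENSGACG00000013161, 0.23 to 0.67 for ENSGACG00000013097 and -1.06 to -0.10 for ENSGACG00000020611. It was 0.05 to 0.69 for ENSGACG00000011581 and -0.51 to 0.04 for ENSGACG00000001969. These intervals are not adjusted for the number of genes tested. With all libraries the paternal difference in personally exposed fish was 0.14 ± 0.16 for ENSGACG00000013161 and 0.05 ± 0.08 for ENSGACG00000013097. It was 0.31 ± 0.18 (interval -0.05 to 0.67) for ENSGACG00000001969 and 0.35 ± 0.19 (interval -0.04 to 0.74) for ENSGACG00000020611, so that these intervals then included 0. The named genes were chosen for a large difference in unexposed fish, so that a smaller value in the other fish is favoured by the choice.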

How the data were processed

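The only table used, deposited by the authors, holds log2 CPM for 17730 genes, that is log2 of reads relative to a scaled library size, with a prior added to avoid 0. The submitters' processing notes list HTSeq 0.6.1, TopHat2 2.0.8, CASAVA 1.8.2 and edgeR. They name NCBIM37, which is a mouse assembly; the build actually used, the annotation release and the strand setting are not given in the sources used here. Overlapping genes and near-identical paralogs are therefore uncertain. The reference table (assembly fGasAcu3.hap1.1) matched 0 identifiers, and lists set up by symbol could not be used.

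Deposited values above their floor of -6.77 followed whole steps, from which reads were recovered (100% of values whole within 0.01 reads). PCR copies were not told apart, so that read totals include them. Genes over 0 log2 CPM in at least 5 of 29 libraries were tested (16660). The test was limma-trend on the deposited log2 values (limma 3.58.1, statmod 1.5.0, R 4.3.3), with 4 group means, sex and father as a random block (sibling correlation 0.111, and 0.162 without neither replicate 3), adjusted by Benjamini-Hochberg over all genes tested. Standard errors and 95% intervals are the moderated ones of that fit. The calling of genes was tested on simulated data that held no library standing apart, and the coverage of the intervals was not tested. A prior shrinks log2 differences of genes with few reads. Sex labels of the 13 fish went with ENSGACG00000012640, at 1.71 to 2.79 log2 CPM in females and 4.83 to 5.71 in males. This gene was taken as one that differs between the sexes without a source outside these data, so that the agreement is a description. The library both replicate 7, labelled male, had 2.49 log2 CPM of this gene and was left out in an alternative.

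Named genes are the 2 higher and 2 lower with the smallest p at a mean of at least 1 log2 CPM, in each fit. The comparison, the rule and the alternatives were chosen with earlier results of these data known. Replicate numbers follow deposition order and only name a fish.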

Additional observations from a re-analysis of the deposited data

Results flagged for a closer look

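A search for fish that stand alone in their group covered 24 sets, made of 7 library measures and the 5 named genes in each of the 2 groups, and 9 sets held one. Chance picks out about 1 set in 20, but the sets describe the same libraries and are not independent, so that their number is a description. Of the 9 sets, 7 belonged to neither replicate 3, which was already known from an earlier look at these data to stand apart. Its relative log spread was 1.52 log2 units (0.267 to 0.338 in the remaining neither libraries). The share of reads in its 10 most abundant genes was 5.68%, compared with 3.40% to 3.81%, and that in its 100 most abundant genes was 22.0%, compared with 13.4% to 14.3%. A difference of over 2-fold from the median library was found at 34.7% of abundant genes, where the remaining neither libraries had 0.197% to 0.62%. Its reads in the table came to 61.2% of the scaled library size, and those of the remaining neither libraries to at most 46.4%. It had 1.68 log2 CPM of ENSGACG00000013161, where the others had 2.72 to 2.92, and 0.48 log2 CPM of ENSGACG00000001969, where the others had 2.07 to 2.26. What sets this library apart was not tested.

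In paternal only, replicate 8 had 26896865 reads, where the others had 4316374 to 13464189. Paternal only replicate 2 had 1.89% of abundant genes over 2-fold from the median library, where the others had 0.169% to 0.761%.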

How the results depend on the processing

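The differences of the 5 named genes kept their direction in each of 34 alternatives with all libraries and in each of 33 without neither replicate 3. The genes were chosen for a small p in this contrast and the alternatives share most libraries, so that this is a description. With all libraries, the number of genes called was 1 under quantile normalization (ENSGACG00000013161, adjusted p = 0.0489 in limma), 1 with library weights (the same gene, adjusted p = 0.0411), and 0 to 3 over leaving out each fish or father. Without neither replicate 3 it was 3 with library weights (ENSGACG00000013161, ENSGACG00000020611 and ENSGACG00000005400, the last at -0.74; adjusted p = 0.0462 for each), 1 with limma-voom, and 0 to 1 over leaving out fish or fathers. With neither replicate 3 kept, leaving out neither replicate 5 called ENSGACG00000020611, ENSGACG00000013161 and ENSGACG00000018692 (adjusted p = 0.0278 for each), and the last also passed without father M33 (adjusted p = 0.041). ENSGACG00000018692 had a mean of 0.45 log2 CPM, under the limit set for named genes. Its differences in these fits were 3.60 and 3.91 log2 units. Also with neither replicate 3 kept, ENSGACG00000015034 passed without paternal only replicate 2 (-1.29, adjusted p = 0.0416) and ENSGACG00000005447 without father M11 (1.49, adjusted p = 0.0334). None of these 4 omissions called these genes without neither replicate 3 as well, except that of father M11 for ENSGACG00000020611. Genes outside the 5 are named here because they were called. Nominal p-values below 0.05 numbered 1986 with only the 13 libraries in the fit (1495 without neither replicate 3), 2128 with library weights (2174), and, with neither replicate 3 otherwise kept, 1073 to 5036 over leaving out each fish or father, the lowest without father M8. The difference in the paternal effect between personally exposed and unexposed fish gave 1 gene in limma-voom and 0 in the other alternatives run. Over leaving out each fish, the difference in log2 reads was -0.18 to 0.50, in genes with reads -12.9 to 42.1, and in relative log spread -0.28 to 0.037, none past an exact permutation p of 0.05. With 1 value per father and group, and father still as a random block, limma called 0 genes in either fit. No paired analysis was possible because replicate numbers follow deposition order and match no fish across groups, and no father has fish in both; the lane, which libraries of both groups share, was used as a term (0 genes called in either fit, and 3211 or, without neither replicate 3, 1228 at a nominal p below 0.05). Intervals were widest in genes under 1 log2 CPM, where counting error and spread between fish were not separated.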
